A study of Laodelphax striatellus with 6 samples.

Results

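Transposable elements are DNA segments that copy or move themselves within a genome, and their transcripts were followed here in the small brown planthopper, Laodelphax striatellus, a sap-feeding pest of rice. The transcripts were chosen by the words of the protein description that the authors set beside each assembled gene, such as retrovirus-related, reverse transcriptase, transposase, piggyBac, jockey, copia, gypsy or tigger. Of 59004 assembled genes, 214 carried such words. The study compared 3 libraries from untreated control insects with 3 libraries from insects given β-asarone, a phenylpropanoid of plant oils, and asked about detoxification. All 6 were poly(A) RNA of whole bodies of wild-type insects. Dose, exposure time, age, sex and the number of insects per library are not in the labels, nor is it said whether libraries of a group came from separate insects, so the p-values speak for library-to-library spread only, and that spread may be technical.

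Retrotransposons move through an RNA copy that a reverse transcriptase turns back into DNA. Those with long terminal repeats, of the Copia and Gypsy groups, resemble retroviruses and encode gag and pol proteins, while the LINE elements lack these repeats. DNA transposons, such as piggyBac, Tc1-mariner and hAT elements, are usually cut out and pasted in by a transposase. Insects hold most of them in check with small RNAs bound by Argonaute and Piwi proteins, above all in the germ line. A transcript may come from a mobile copy, from a decayed copy inside another gene, or from a transposase gene that the host has taken over, and the present values do not tell these apart.

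One of the 214 transcripts is not an element: it is described as telomerase reverse transcriptase, the host enzyme that extends chromosome ends, and stood at a mean of 0.442 TPM. TPM is each transcript's length-corrected share of a library, scaled to the same total in every library. The largest class was piggyBac with 92 transcripts. It was followed by Tc1-mariner and pogo with 32, reverse transcriptases of no named family with 18, LINE with 16, Gypsy with 15, hAT with 12 and Copia with 11. Another 8 were gag-pol or retrovirus-related with no family named, and 9 were other transposases or transposon proteins. The names rest on distant relatives: the best hits came from 70 species, and 41 of the 214 had a planthopper, in each case Nilaparvata lugens, as best hit. Assembled genes can be pieces of one element, since 57 of the 214 shared a cluster of the assembly with another and 117 shared both description and best-hit species with another. Copies of one element can share reads, so values of single transcripts are uncertain. Of all 25802 described genes, 18962 were described only as hypothetical or uncharacterized, and elements among these were not counted.

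Most element transcripts were scarce. Of the 214, 110 had a mean under 0.5 TPM over the 6 libraries, 15 had at least 5 TPM and 4 had at least 20 TPM. Together they held 0.0335% to 0.038% of a library. The 5 most abundant held 34.1% of the summed element TPM and the 10 most abundant 47.8%. A value above 0 in all 6 libraries was seen for 144 of the 214 (67.3%), close to the 63.2% of all assembled genes. The filter of at least 1 TPM on average over the 6 libraries, used for every test, left 57 element transcripts (26.6%). It left 42.1% of all assembled genes and 55.7% of all described genes. These 57 held 81.6% of the summed element TPM.

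**Figure D1:**
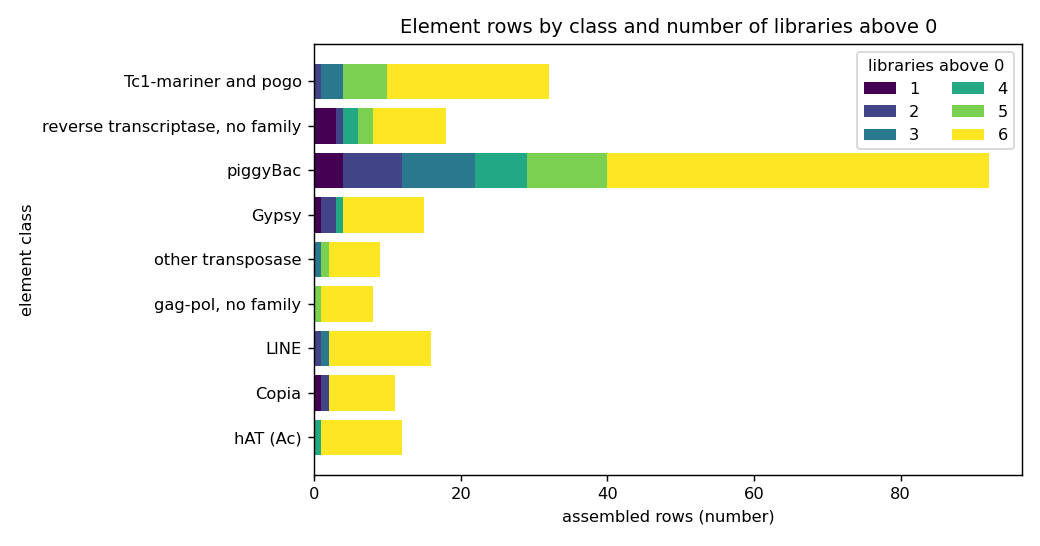
Number of assembled element transcripts in each class (horizontal axis), with colours for the number of the 6 libraries in which a transcript was above 0 (telomerase left out). PiggyBac had the most transcripts, 92, of which 40 were at 0 in at least 1 library.

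In the series as a whole, 1 of 24816 tested genes (0.00403%) passed the threshold of an adjusted p under 0.05 (limma on log2(TPM + 1), Benjamini-Hochberg adjustment over all tested genes). That gene is no element. Control replicate 2 stood apart, with a median of 2.23 TPM over the tested genes against 2.85 to 3.37 TPM in the other 5 libraries. It held the lowest value of the 6 libraries for 48.7% of all tested genes and for 27 of the 57 tested element transcripts. Markers of the germ line, where elements are often active, were few: the words used for them matched 1 vasa-like transcript and 2 fragments of the vitellogenin receptor. These 3 together held 2.85 to 4.05 TPM in control and 3.59 to 3.67 TPM in asarone libraries. Sperm and axoneme markers (14 transcripts) summed to 9.55 to 28.9 TPM and 13.6 to 25.2 TPM, and the part of either in the results was not tested.

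Element RNA as a whole was similar in both groups. The 214 transcripts together stood at 368.6, 367.8 and 373.9 TPM in control replicates 1, 2 and 3 and to 380.3, 361.6 and 335.5 TPM in asarone replicates 1, 2 and 3. The group means were 370.1 ± 3.33 and 359.1 ± 22.5 TPM (SD, n = 3), a ratio of 0.97, and the groups overlapped. In whole bodies, fewer cells of a type and less RNA per cell cannot be told apart. None of the 57 tested element transcripts passed the threshold, and the smallest adjusted p among them was 0.542 (limma). At an unadjusted limma p under 0.05 there were 2 element transcripts, 0 higher and 2 lower with asarone, against 3.47% of all tested genes (1.99% higher and 1.47% lower), so the count was near the background. Control and asarone values were fully apart for 2 higher and 5 lower element transcripts, against 8.66% of all tested genes (4.53% higher and 4.14% lower). The lower ones exceeded their background by a few transcripts, and 2 of those 5 are tigger transcripts of the same description.

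Of the 57, 32 were higher and 25 lower with asarone, with a median log2 change of 0.02 on the log2(TPM + 1) scale, where the pseudocount shrinks the change of scarce transcripts. Over all tested genes 15590 were higher and 9226 lower, with a median of 0.08. The element split turned to 26 higher and 31 lower after median-of-ratios scaling and to 25 and 32 after quantile normalization, while the median of all tested genes moved to 0.043 and 0.017 and that of the elements to -0.014 and -0.016. Without control replicate 2 it was 19 and 38, with a median of -0.106 against -0.033 for all tested genes. Within groups, the element transcripts varied about as much as other genes, with a median coefficient of variation of 25.5% against 28.7%.

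**Figure D2:**
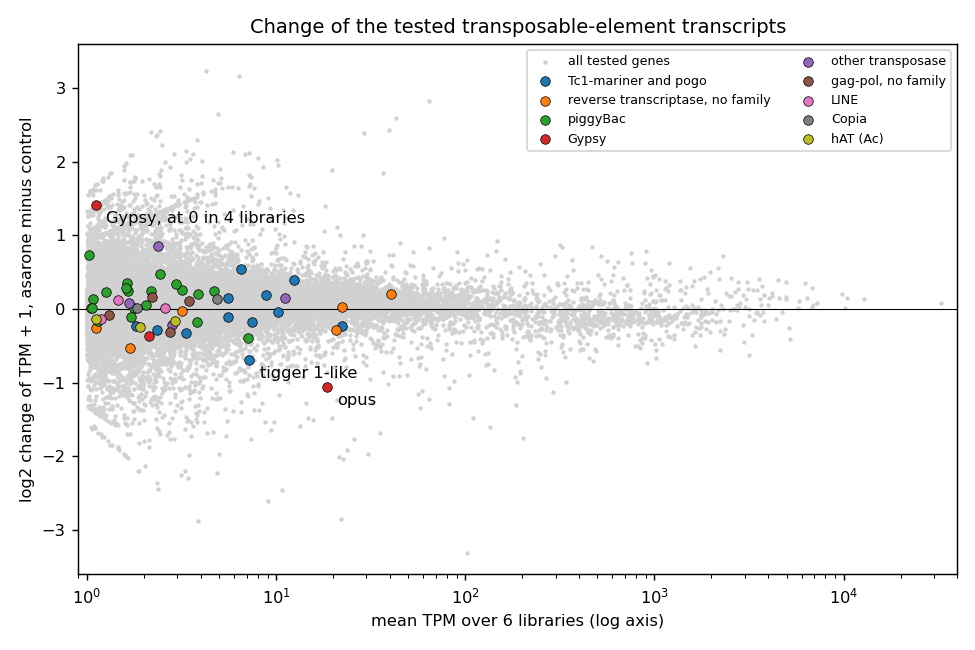
Log2 change of TPM + 1 (asarone minus control) against mean TPM on a log axis, for all 24816 tested genes in grey and the 57 tested element transcripts coloured by class. The opus-like Gypsy transcript (-1.06) and a tigger 1-like transcript (-0.69) lie lowest, and a Gypsy transcript at 0 in 4 libraries (1.41) lies highest.

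Among the retroviral-type elements, the Gypsy class had the widest gap between the groups. In control libraries its 15 transcripts together reached 29.7, 33.2 and 35.0 TPM, and in asarone libraries 21.6, 22.3 and 18.9 TPM. Every control sum was above every asarone sum, and the ratio of the means was 0.642. The gap was that of a single transcript, TRINITY_DN8982_c0_g1, which held 69.3% of the class. It was matched to the Pol polyprotein (protease, reverse transcriptase and endonuclease) of opus, an element of Drosophila melanogaster. It stood at 23.18, 26.19 and 26.79 TPM in control and 10.11, 12.35 and 12.67 TPM in asarone libraries, so the groups were far apart for their spread. The log2 change was -1.06 (95% interval -1.41 to -0.71, limma adjusted p = 0.542), which did not pass over all genes. Across 16 alternative settings it lay between -1.13 and -0.96, with adjusted p-values of 0.271 to 0.988. Without it the Gypsy class, now 14 transcripts, held 6.5, 7.02 and 8.19 TPM in control and 11.5, 9.96 and 6.21 TPM in asarone libraries, which overlapped.

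The other Gypsy transcripts were far scarcer. TRINITY_DN13860_c0_g1, a Ty3-I-like Gag-Pol polyprotein with the spider Araneus ventricosus as best hit, was at 2.07, 2.6 and 2.88 TPM in control and 1.74, 1.95 and 1.48 TPM in asarone libraries. These groups did not overlap, but by a narrow margin (limma adjusted p = 0.98, log2 change -0.37, SE 0.17). TRINITY_DN46919_c0_g1, a Pol polyprotein with the spider Trichonephila clavipes as best hit, reached 3.45 and 3.19 TPM in asarone replicates 1 and 2 and was listed at 0 in the other 4 libraries. A scarcer transcript of the same description and best hit (TRINITY_DN33110_c0_g3) stayed between 0.27 and 0.45 TPM in all 6. A second opus-like transcript (TRINITY_DN14775_c0_g2) ranged from 0.15 to 0.29 TPM with overlapping groups. The other 10 Gypsy transcripts had means under 1 TPM.

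**Figure D3:**
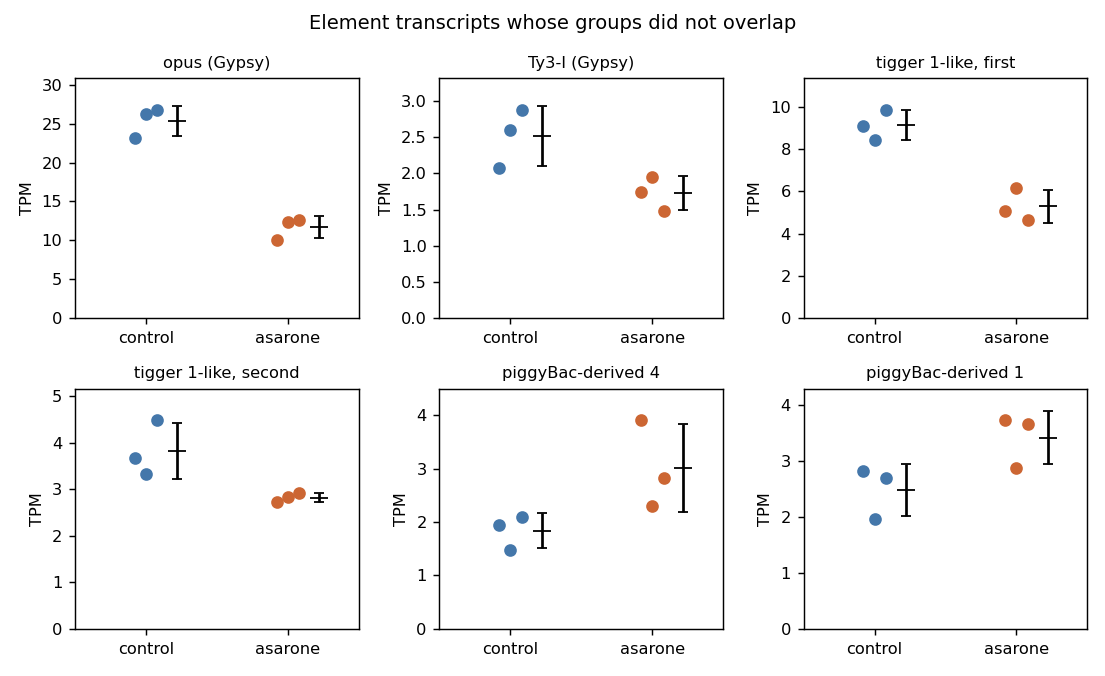
TPM (vertical axis, from 0) of 6 element transcripts in the 3 control and 3 asarone libraries, with mean and SD beside the points. They were chosen because their groups did not overlap, which held for 2 higher and 5 lower tested element transcripts. The lower gag-pol transcript TRINITY_DN6184_c0_g1 is not shown. The opus-like, the Ty3-I-like and the pair of tigger 1-like transcripts were lower and the pair of piggyBac-derived transcripts higher with asarone, and no transcript shown passed the threshold.

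Summed over each class, Copia and gag-pol transcripts stood close to level. The Copia class, 11 transcripts, held 11.4 ± 1.99 TPM in control and 11.1 ± 0.5 TPM in asarone libraries (SD, n = 3). Its most abundant member (TRINITY_DN7142_c0_g2), a Pol polyprotein of the TNT type, ranged from 3.49 to 5.7 TPM in control and from 4.64 to 5.92 TPM in asarone libraries. The next (TRINITY_DN9995_c0_g2) varied more, at 3.74, 0.83 and 1.17 TPM against 1.58, 1.07 and 2.62 TPM. Several Copia transcripts under the filter had groups that did not overlap, all of them lower with asarone. How often this held for all genes under the filter was not counted. Their means were only 0.357 to 0.605 TPM, and some shared description and best hit. With no filter the class split into 5 higher and 6 lower. Transcripts described as gag-pol with no family summed to 11.8 ± 2.19 and 11.7 ± 2.79 TPM. Their most abundant member (TRINITY_DN4303_c0_g2), with the ant Lasius niger as best hit, was at 3.42, 2.01 and 4.15 TPM against 6.26, 2.24 and 2.66 TPM, the highest value being 1 asarone library. Another with the same best hit (TRINITY_DN6184_c0_g1) was at 2.55, 3.42 and 3.44 TPM in control and 2.23, 2.34 and 2.39 TPM in asarone libraries. The groups of this transcript did not overlap (limma adjusted p = 0.98, log2 change -0.31, SE 0.17).

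LINE transcripts were scarce, with at most 2.57 TPM on average, and summed to 10.9 ± 1.58 and 12.1 ± 2.8 TPM in control and asarone libraries (SD, n = 3). The 3 tested ones were all described as RNA-directed DNA polymerases of the BS element. The most abundant (TRINITY_DN5569_c0_g2) was at 3.42, 1.45 and 2.9 TPM in control and 3.18, 2.27 and 2.2 TPM in asarone libraries. The second (TRINITY_DN6_c8_g2) ranged from 1.09 to 1.69 TPM and from 1.19 to 1.77 TPM. Neither separated the groups, and the transcripts named after the jockey and R1 elements were under the filter.

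Reverse transcriptases of no named family held the most abundant of the 214 transcripts. Their sum was far higher in control replicate 2 than in the other 5 libraries. TRINITY_DN39950_c0_g1, with the fungus gnat Rhynchosciara americana as best hit, was at 27.29, 53.29 and 34.63 TPM in control and 35.87, 44.85 and 47.63 TPM in asarone libraries. TRINITY_DN19898_c0_g1, with Drosophila mauritiana as best hit, was at 20.18, 29.44 and 17.52 TPM against 23.83, 22.47 and 20.91 TPM. TRINITY_DN47230_c0_g1, with the silkworm as best hit, was at 14.43, 45.76 and 12.6 TPM against 17.31, 21.19 and 12.22 TPM. All 3 were highest in control replicate 2, the library that was lowest for many other genes. Their sum was 128.5 TPM there and 61.9 to 88.5 TPM in the other 5 libraries, so the class made up 37.7% of element TPM in that library and 19.5% to 27.8% elsewhere. The silkworm-like transcript had the largest coefficient of variation among element transcripts of at least 5 TPM, 62.1%, and its log2 change of -0.29 became 0.27 without control replicate 2. The other 15 transcripts of the class summed to 7.75 to 15.6 TPM.

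**Figure D4:**
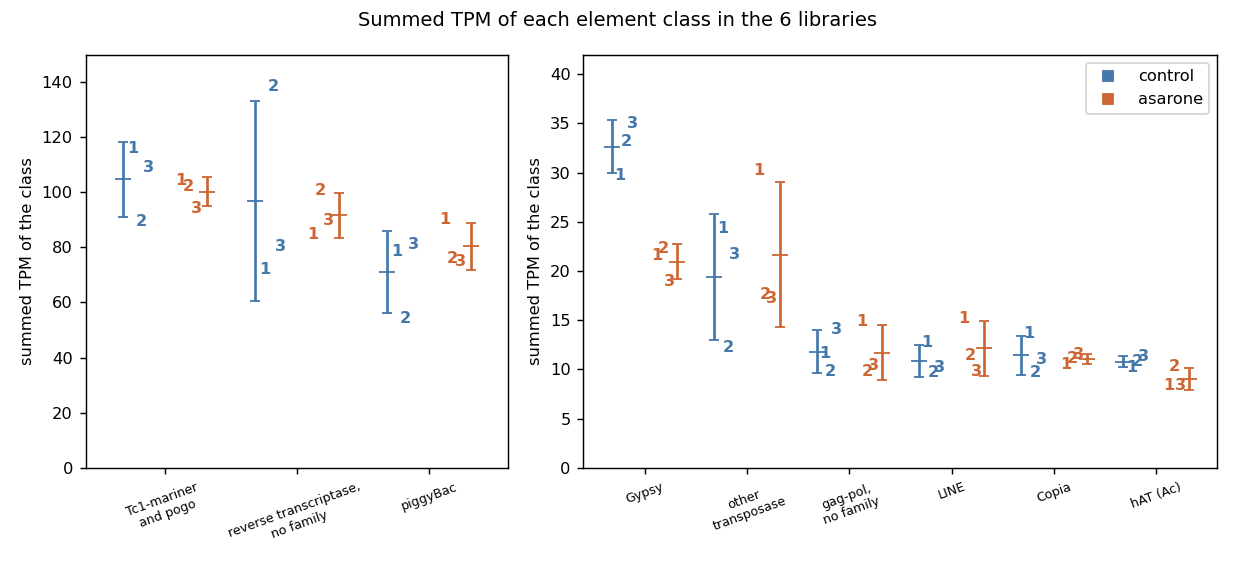
Summed TPM of each element class, with the digits 1, 2 and 3 marking the replicates, and lines the mean and SD of 3 libraries; the panels have different vertical scales. Control replicate 2 was highest for reverse transcriptases (138.5 TPM) and lowest for piggyBac (54.1 TPM), and the Gypsy sums of the groups did not overlap.

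Among DNA transposons, the Tc1-mariner and pogo class carried the largest share of the summed TPM of the 214 transcripts, 28.1%. SETMAR-like transcripts, given further below, were outside the selection and are not in this share. Its 32 transcripts held 104.7 ± 13.7 TPM in control and 100.2 ± 5.21 TPM in asarone libraries (SD, n = 3). Of its 12 tested members 4 were higher and 8 lower, with a median log2 change of -0.14. The split was 2 higher and 10 lower (median -0.19) without control replicate 2, and 5 and 7 without control replicate 1 (-0.03) or 3 (-0.07). The most abundant (TRINITY_DN86_c0_g1), a Tcb2-like transposase, was at 24.32, 26.27 and 21.53 TPM in control and 19.84, 21.53 and 19.5 TPM in asarone libraries, the groups meeting at 21.53 TPM. The second (TRINITY_DN24847_c0_g1), a TC3A transposase, was at 13.32, 7.44 and 11.54 TPM against 14.7, 14.82 and 12.96 TPM. It is 1 of 6 TC3A transcripts with the ant Pseudoatta argentina as best hit, whose sums were 40.5, 23.3 and 36.3 TPM in control and 39.6, 36.5 and 33.1 TPM in asarone libraries. Control replicate 2 was the low one among these 6 sums.

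The tigger transcripts of this class, whose transposase belongs to the pogo group, stood lower with asarone in part. Of 10 transcripts, 3 have the same description and the same best hit, the parasitoid wasp Leptopilina heterotoma. The first (TRINITY_DN6848_c0_g1) was at 9.1, 8.43 and 9.85 TPM in control and 5.06, 6.13 and 4.65 TPM in asarone libraries, with a clear gap between the groups. Its log2 change was -0.69 (95% interval -1.07 to -0.32, limma adjusted p = 0.858) and lay between -0.8 and -0.62 across 15 alternative settings. The second (TRINITY_DN27730_c0_g1) was at 3.67, 3.32 and 4.48 TPM against 2.72, 2.84 and 2.91 TPM, also without overlap (limma adjusted p = 0.98, log2 change -0.33, SE 0.16). The third (TRINITY_DN6848_c0_g3), from the same assembly cluster as the first and under the filter, was at 0.52, 0.72 and 0.51 TPM against 0.42, 0.33 and 0.4 TPM. All 3 thus had every control value above every asarone value, and they may share reads, so they are not 3 separate observations. The 4 tigger transcripts with a planthopper best hit had no common direction. The most abundant (TRINITY_DN9894_c0_g1), at 14.47, 6.72 and 10.63 TPM against 10.2, 9.76 and 9.64 TPM, had overlapping groups. Of the other 3, all under the filter, 1 was lower without overlap (TRINITY_DN8405_c1_g1, 0.36, 0.14 and 0.36 TPM against 0.09, 0 and 0.08 TPM). Another was higher without overlap (TRINITY_DN30408_c0_g1, 0, 0.17 and 0.3 TPM against 1.58, 0.49 and 0.41 TPM).

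PiggyBac transcripts were many and scarce, with at most 7.06 TPM on average, and named after the piggyBac-derived transposase genes 1 to 4 of other animals. Their sums were 78.4, 54.1 and 81.0 TPM in control and 90.2, 75.8 and 75.0 TPM in asarone libraries, with control replicate 2 lowest and overlapping groups. Of the 19 tested, 15 were higher and 4 lower with asarone, with a median log2 change of 0.23. Over all tested genes 15590 were higher and 9226 lower, with a median of 0.08. By limma 0 of the 19 passed the threshold and 0 had an unadjusted p under 0.05. The lean of the class changed with the libraries used. Of the 19, 14 had their lowest value in control replicate 2, a larger share than the 48.7% of all tested genes. In asarone replicate 1, 10 had their highest value, again a larger share than the 28.7% of all tested genes. The split was 10 higher and 8 lower without control replicate 2, and 10 and 9 without asarone replicate 1. The class median was then 0.09 and 0.07, against -0.033 and 0.033 for all tested genes. The class split was 11 and 7 without control replicate 1 and 13 and 5 without asarone replicate 3. Without control replicate 3 or asarone replicate 2 it stayed at 15 and 4. After median-of-ratios scaling it was 13 and 6, and after quantile normalization 12 and 7. The class median was then 0.16 and 0.11, against 0.043 and 0.017 for all tested genes. In each of these settings it lay above the median of all tested genes, a difference that was not tested.

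The most abundant piggyBac transcript (TRINITY_DN4752_c0_g1) was lower in 2 of 3 asarone libraries, at 8.66, 8.49 and 7.05 TPM in control and 5.16, 4.81 and 8.19 TPM in asarone libraries. The second (TRINITY_DN24135_c0_g1) was at 6.69, 3.3 and 2.82 TPM against 7.66, 3.43 and 4.4 TPM, highest in replicate 1 of both groups. Only 2 had groups that did not overlap. A piggyBac-derived 4-like transcript (TRINITY_DN27672_c0_g1) was at 1.95, 1.48 and 2.09 TPM against 3.9, 2.3 and 2.83 TPM (limma adjusted p = 0.98, log2 change 0.48, SE 0.21). A piggyBac-derived 1 transcript (TRINITY_DN2883_c0_g1) was at 2.82, 1.96 and 2.7 TPM against 3.73, 2.88 and 3.66 TPM (limma adjusted p = 0.98, log2 change 0.34, SE 0.18). In both, the lowest asarone value lay just above the highest control value.

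The hAT class, 12 transcripts described as Ac-type transposases after the Activator element of maize, leaned lower with asarone without passing the test. It held 10.2, 10.8 and 11.3 TPM in control and 8.33, 10.3 and 8.37 TPM in asarone libraries, which overlapped. All 3 tested members were lower, with log2 changes of -0.24 to -0.14, and by limma 0 passed the threshold and 0 had an unadjusted p under 0.05. With no filter on low values 11 of the 12 were lower and 1 higher, against 100 lower and 114 higher among all 214 element transcripts. The class median was then -0.14, against 0.024 for all genes, whose split without the filter was not counted. The hAT transcripts that were not tested had means under 1 TPM, where directions are uncertain. Other classes split unevenly as well without the filter. LINE had 3 lower and 13 higher, piggyBac 32 and 60, and Tc1-mariner and pogo 20 and 12. Several hAT transcripts shared an assembly cluster with another and may share reads, so the 12 are not separate observations. The most abundant (TRINITY_DN2319_c0_g1) was at 3.23, 3.61 and 2.56 TPM against 2.53, 2.53 and 3.03 TPM, and the second (TRINITY_DN36312_c0_g4) at 1.77, 1.93 and 2.77 TPM against 1.53, 2.15 and 1.32 TPM. Among the other transposon proteins, the most abundant (TRINITY_DN3950_c0_g2), named after a transposon-derived protein of the worm, ran from 5.45 TPM in control replicate 2 to 16.87 TPM in control replicate 1. Its asarone values lay inside that range, at 13.81, 9.34 and 10.61 TPM. A transposase of the IS4 family (TRINITY_DN22511_c0_g2) was at 2.85, 3.23 and 3.11 TPM against 1.79, 2.58 and 3.34 TPM.

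**Figure D5:**
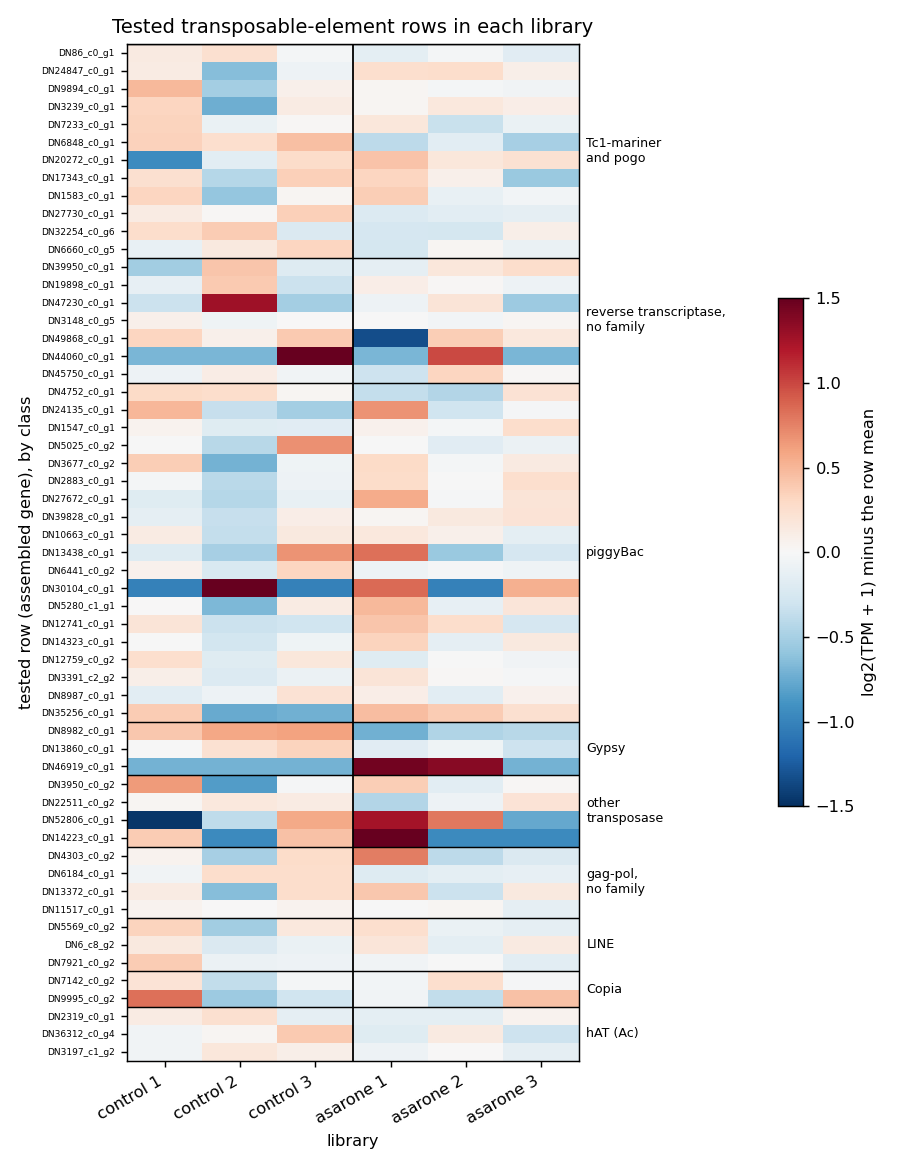
Log2(TPM + 1) minus the mean of each transcript over the 6 libraries, for the 57 tested element transcripts (rows, by class) in each library (columns); red is above and blue below the mean. Control replicate 2 is blue for most piggyBac transcripts and red for the 3 most abundant reverse transcriptases.

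Some element transcripts were present in few libraries, about as often as assembled genes in general. Above 0 in exactly 1, 2 and 3 libraries were 4.21%, 6.54% and 7.01% of the element transcripts. Among all assembled genes these shares were 4.96%, 6.81% and 7.23%. Of the 214, 38 were above 0 in at most 3 libraries, 10 were at 0 in all 3 control libraries and 5 in all 3 asarone libraries. None was at 0 throughout one group and above 0 throughout the other. Of all 59004 assembled genes, 1402 had at least 2 TPM in 1 library and at most 5% of that in every other. In 5 cases this was an element transcript, a similar share: 2 in asarone replicate 1, 2 in asarone replicate 2 and 1 in control replicate 2. The highest was a piggyBac-derived 3-like transcript (TRINITY_DN50031_c0_g1), at 4.93 TPM in asarone replicate 2 and listed at 0 in the other 5 libraries. It was followed by other piggyBac transcripts at 2.14 TPM in asarone replicate 1 (TRINITY_DN31668_c0_g1) and 2.09 TPM in asarone replicate 2 (TRINITY_DN7995_c0_g4). TPM keeps no depth, so how many reads stand behind such values is unknown.

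The few transcripts matched to silencing genes were at similar levels in both groups. A list of words for the small RNA pathways and for repressive chromatin matched 9 transcripts, of which 5 are described as Dicer, 2 as Argonaute, 1 as vasa-like and 1 as SETDB1. The list also held words for Piwi proteins, but none of the 9 was described as one. The values therefore do not cover the Piwi proteins themselves. Together they stood at 16.1 to 19.5 TPM in control and 16.3 to 19.2 TPM in asarone libraries. Of the 5 tested, 2 were higher and 3 lower with asarone. By limma 0 passed the threshold and 0 had an unadjusted p under 0.05, and in none were the groups apart. Dicer 2 (TRINITY_DN2724_c3_g1), which in Drosophila cuts double-stranded RNA into small interfering RNA, was at 7.1, 4.77 and 6.13 TPM in control and 6.73, 6.47 and 6.61 TPM in asarone libraries. An Argonaute-like transcript (TRINITY_DN4715_c0_g1), of the family that uses such RNA to find its targets, was at 5.14, 6.28 and 6.3 TPM against 4.98, 5.73 and 5.38 TPM. Neither differed beyond its spread, with log2 changes of 0.13 (95% interval -0.28 to 0.54) and -0.12 (-0.48 to 0.25). The vasa-like helicase (TRINITY_DN39900_c0_g1, best hit in a pearl oyster) ranged from 1.38 to 1.86 TPM over the 6 libraries, and an Argonaute 1 with a sea anemone as best hit (TRINITY_DN36072_c0_g2) from 0.77 to 1.18 TPM. SETDB1 (TRINITY_DN15716_c1_g2), a histone methyltransferase that marks elements for repression, reached 1.47 TPM in control replicate 3 and 3.09 and 1.44 TPM in asarone replicates 1 and 2, and was listed at 0 in the other 3 libraries.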

How the data were processed

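Per the labels' protocols, poly(A) RNA was made into libraries with uracil-marked second strands. Tools listed per the submitters' processing notes are StringTie 1.3.4d, HISAT2 2.0.4, cutadapt 1.9, DESeq2 and edgeR. The sources used here give neither their roles nor the genome build or the use of strand. Deposited by the authors, the table is named for FPKM, but each library has the same total within rounding, so its values, made by the authors, were read as TPM, and the test planned for such values was kept. Depth is unknown. The 2 columns of authors' means were not used. Tests used limma 3.58.1 in R 4.3.3 (moderated with trend and robust), two-sided, on log2(TPM + 1) of genes of mean at least 1 TPM, and were tested on simulated data. Sums and medians over elements have no test. Classes come from description words. Named were the 2 most abundant tested transcripts per class, up to 5 per direction without overlap (smallest p, mean at least 2 TPM), 3 found in 1 library only, the 3 most variable of at least 5 TPM, and up to 8 silencing genes. TRINITY_DN46919_c0_g1, TRINITY_DN33110_c0_g3, TRINITY_DN14775_c0_g2, TRINITY_DN6848_c0_g3, TRINITY_DN8405_c1_g1, TRINITY_DN30408_c0_g1, TRINITY_DN9894_c0_g1 and TRINITY_DN14223_c0_g1 were named after their values were seen. Members and lists were chosen with earlier results of these data known. Alternatives are a replicate block, quantile normalization, median-of-ratios scaling, pseudocounts of 0.1 and 0.5, filters of at least 5 TPM or none, plain limma moderation, leaving out transcripts found in 1 library only, summing equal descriptions and leaving out each library.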

Additional observations from a re-analysis of the deposited data

How the results depend on the processing

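No element transcript passed the threshold under any of the 16 alternatives run. The count over all genes, 1, became 0 under quantile normalization, median-of-ratios scaling, the replicate block, a pseudocount of 0.1, a 5 TPM filter or none, and without any single library (0 to 0). The log2 ratio of summed element TPM, -0.044, was -0.146 with the 5 TPM filter, -0.119 after median-of-ratios scaling and -0.123 after quantile normalization. Replicate numbers gave no strong pairing: deviations of same-numbered libraries correlated at 0.16, 0.08 and -0.04 (numbers 1, 2 and 3). Those of differently numbered libraries correlated at -0.14 to 0.06. Deviations from a mean of 3 libraries depend on each other, so these values cannot settle whether libraries were paired. With the replicate block the smallest element adjusted p was 0.912 (limma). Changes near 0 turned sign after median-of-ratios scaling and quantile normalization for TRINITY_DN19898_c0_g1 (-0.03 and -0.01), TRINITY_DN5569_c0_g2 (-0.01 and -0.05) and TRINITY_DN9995_c0_g2 (-0.00 and -0.01). Leaving out 1 library gave ranges across 0 for TRINITY_DN39950_c0_g1 (-0.02 to 0.45), TRINITY_DN19898_c0_g1 (-0.12 to 0.24), TRINITY_DN24135_c0_g1 (-0.04 to 0.55), TRINITY_DN3950_c0_g2 (-0.23 to 0.5), TRINITY_DN4303_c0_g2 (-0.25 to 0.33), TRINITY_DN5569_c0_g2 (-0.24 to 0.19), TRINITY_DN7142_c0_g2 (-0.03 to 0.26), TRINITY_DN9995_c0_g2 (-0.26 to 0.43), TRINITY_DN47230_c0_g1 (-0.62 to 0.27) and TRINITY_DN36072_c0_g2 (-0.12 to 0.03); the cause was not tested.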

Other observations

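Transposase-related words outside the selection matched 47 more transcripts (HARBI1, ZBED, THAP, Jerky and SETMAR, chosen after the data were seen), of which 18 were tested. By limma 0 of these passed the threshold and 1 had an unadjusted p under 0.05, against 3.47% of all tested genes. The groups were fully apart for 1 higher and 1 lower transcript, against 8.66% of all tested genes. SETMAR is named after a host gene that joins a methyltransferase to a mariner transposase. A SETMAR-like transcript with a bee as best hit (TRINITY_DN189_c0_g2) had a higher mean than any of the 214 (83.4 TPM), at 83.48, 100.83 and 77.9 TPM in control and 109.08, 61.68 and 67.31 TPM in asarone libraries, which overlapped. Another SETMAR-like transcript (TRINITY_DN8615_c0_g2, Nilaparvata lugens as best hit) was at 0.81, 0.53 and 0.95 TPM against 2.74, 1.58 and 1.52 TPM, every asarone value above every control value (limma adjusted p = 0.98, log2 change 0.72, SE 0.24). The lower one was a RICESLEEPER-type zinc finger BED protein (TRINITY_DN2543_c0_g1), at 5.53, 6.8 and 5.48 TPM against 4.84, 4.83 and 4.93 TPM (limma adjusted p = 0.98, log2 change -0.24, SE 0.15).

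The Foldback-like transcript TRINITY_DN14223_c0_g1 was at 6.89 TPM in asarone replicate 1, at 1.52 and 1.63 TPM in control replicates 1 and 3, and listed at 0 in the other 3 libraries.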
